A study of Mus musculus with 21 samples.

Results

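Lung fibroblasts taken 14 days after a single dose of silica were compared with those taken 7 days after it, over all gene symbols of the 3 libraries titled for SiO2 day 14 and the 3 titled for SiO2 day 7, which are 6 of the 21 libraries of the series. All 6 came from female C57BL/6 mice carrying the Col1a2-GFP transgene, in which a green fluorescent protein marks cells that use the promoter of the collagen gene Col1a2. The SiO2 day 14 mice and the SiO2 day 7 mice had received crystalline silica at 400 mg/kg by oropharyngeal aspiration. The series calls the silica model progressive and the bleomycin model reversible. The BLM day 14 and BLM day 7 mice of the same transgenic line, used as the other model, had received bleomycin at 2 mg/kg by the same route, and the untreated mice had received neither agent. Levels from SiO2 day 63 mice, dosed in the same way, are given at the end. In every group the fluorescent cells negative for CD45, CD31, EpCAM, CD146 and Ter119 were sorted, so fibroblasts that do not use the Col1a2 promoter, and CD146-positive mural cells, were not sampled. The labels gave no age for the mice and did not say whether a library came from 1 mouse or from a pool, and all p-values therefore measure only the spread between libraries, which may be technical.

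Inhaled silica crystals persist in the lung and keep provoking inflammation, and fibroblasts answer injury by dividing, by laying down collagen and by building contractile fibres. In the uninjured lung, fibroblasts of the alveolar wall store lipid and retinoid and support the epithelium, while fibroblasts of the adventitia around vessels and airways carry complement, chemokine and matrix-organising genes. The comparison of the later with the earlier day asks how these programmes differed between these stages of the silica response.

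The 3′ ends of polyadenylated transcripts were sequenced and counted per gene symbol. Total counts ran from 3438237 to 4272100 in the SiO2 day 14 libraries and from 3821214 to 4159193 in the SiO2 day 7 libraries, and 15813 to 16114 symbols had a count. Levels are given as CPM, counts scaled to the same library total, with the trimmed mean of M values (TMM) as the correction for composition. The first principal component of the 6 libraries held 57.1% of the variance and separated the days. SiO2 day 14 replicate 3 lay farther out on it than replicates 1 and 2 (38.4, against 26.7 and 25.5), and results that change without it are given with both values. Defining markers of the depleted cells were near 0: the leukocyte gene Ptprc had 1.19, 0 and 0.486 CPM at day 14 and 0, 0.266 and 0 CPM at day 7, the endothelial gene Pecam1 had 0, 0.266 and 0 CPM and 0, 0 and 0 CPM, and Cdh5 and Cd3e had 0 in all 6. Epcam had 0, 0.533 and 1.21 CPM at day 14 and 0.251, 0.531 and 0 CPM at day 7. Mcam, the gene of CD146, had 0, 0 and 0 CPM at day 14 and 1.76, 0.266 and 0.253 CPM at day 7. The erythroid gene Hbb-bs had 0, 0 and 0.243 CPM at day 14 and 0.502, 1.59 and 0.253 CPM at day 7. The fibroblast receptor Pdgfra, a marker of the labelled cell type, averaged 126 ± 12.1 CPM at day 14 and 88.4 ± 4.81 CPM at day 7 (SD, n = 3 each).

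Changes were numerous in both directions. Of 11669 genes tested, 1420 (12.2%) were higher and 1285 (11.0%) were lower at SiO2 day 14 than at SiO2 day 7 in edgeR's quasi-likelihood test, with a Benjamini-Hochberg adjusted p under 0.05. More than 2-fold changes were found for 519 of the higher and 437 of the lower genes. The median log2 fold change of all tested genes was -0.00197. In 2539 of the 2705 called genes, or 93.9%, the 3 libraries of one day did not overlap with the 3 of the other, as was so for 18.5% of all tested genes in the higher and 17.9% in the lower direction. Below, "rose", "fell", "higher" and "lower" mark genes called by this test, and the values after a symbol are log2 fold changes ± SE, day 14 minus day 7, with n = 3 libraries per day. Because each library pools many sorted cells, fewer cells of a type and less RNA per cell cannot be told apart.

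The largest fall, among genes at 10 CPM or more without overlap, was that of fibrillin 2, Fbn2, a microfibril protein used mostly in development. Fbn2 had 0.594, 0.533 and 0 CPM in the SiO2 day 14 libraries, against 12.8, 14.6 and 11.6 CPM in the SiO2 day 7 libraries (-5.06 ± 0.48, adjusted p = 1.97e-10). The groups did not overlap, and SiO2 day 14 replicate 3 held no Fbn2 count. H19, an imprinted non-coding RNA of growing tissue at chr7:142575529-142578143 in mm10, had 8.62, 6.13 and 2.43 CPM in the SiO2 day 14 libraries, against 106, 115 and 139 CPM in the SiO2 day 7 libraries (-4.42 ± 0.32). Lrrc15, a membrane protein of activated and tumour-associated fibroblasts at chr16:30269302-30283256, had 2.38, 0.799 and 0.486 CPM in the SiO2 day 14 libraries, against 26.1, 31.9 and 17.97 CPM in the SiO2 day 7 libraries (-4.40 ± 0.36, adjusted p = 5.7e-12). In both genes every day 14 library lay far below every day 7 library. Spp1, which encodes the secreted phosphoprotein osteopontin at chr5:104435118-104441050, had 99.0, 115 and 38.9 CPM in the SiO2 day 14 libraries, against 1040.1, 776 and 1755 CPM in the SiO2 day 7 libraries (-3.82 ± 0.46, adjusted p = 2.05e-05). Its day 7 libraries differed more than 2-fold among themselves, yet the lowest of them stood far above the highest day 14 library. Ptprn, a member of the receptor-type phosphatase family found in secretory vesicles (-3.82 ± 0.32), and the acyl-CoA synthetase Acsl6 (-3.44 ± 0.36) were also among the 12 largest falls.

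The largest rises included Fxyd3, a regulator of the sodium pump, with 39.8, 24.8 and 85.3 CPM in the SiO2 day 14 libraries, against 9.03, 5.84 and 4.30 CPM in the SiO2 day 7 libraries (2.97 ± 0.52, adjusted p = 0.000631). SiO2 day 14 replicate 3 was highest, and the days did not overlap. The endocytic receptor Lrp2 had 10.4, 7.20 and 15.6 CPM in the SiO2 day 14 libraries, against 0.752, 2.39 and 1.27 CPM in the SiO2 day 7 libraries (2.90 ± 0.42), and Lrat, the enzyme that esterifies retinol for storage, had 214, 96.2 and 299 CPM in the SiO2 day 14 libraries, against 31.4, 37.2 and 32.7 CPM in the SiO2 day 7 libraries (2.59 ± 0.43, adjusted p = 0.000379). Lrat varied widely among the day 14 libraries, and its day 7 libraries lay within a narrow band below them. The secreted protein C1qtnf3 (2.85 ± 0.48), the neuropeptide receptor Npy1r (2.43 ± 0.34), the membrane protein Gsg1l (2.62 ± 0.48), the plakin Ppl (2.32 ± 0.52), the surface antigen Ly6c2 (2.46 ± 0.58) and the transcriptional corepressor Cbfa2t3 (2.24 ± 0.43) were also among the 12 largest rises. Ly6c2 has close relatives in its gene cluster, among which tags may be divided.

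**Figure D1:**
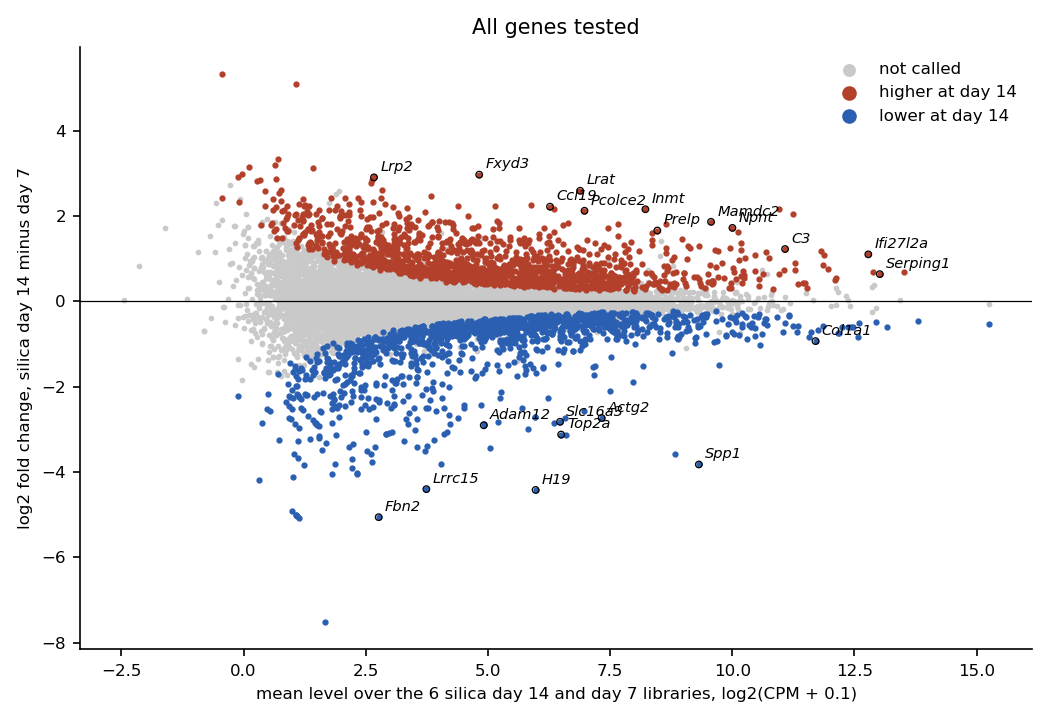
Each point is 1 of the 11669 tested genes, with its mean level over the 6 silica libraries on the x axis (log2 of CPM plus 0.1) and its log2 fold change, silica day 14 minus day 7, on the y axis. Red marks the 1420 genes called higher and blue the 1285 called lower, and the falls of Fbn2, Lrrc15, H19 and Spp1 reach beyond the rises of Lrp2, Fxyd3 and Lrat.

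Genes of cell division were lower almost throughout. In the list of mitosis and spindle genes, 0 of 33 tested members were called higher and 31 lower (median -2.76), and in the list of DNA replication genes 0 higher and 19 lower of 24 tested (median -1.42), beside 12.2% higher and 11.0% lower among all tested genes. Top2a, the topoisomerase that untangles chromosomes before they part, had 27.9, 19.2 and 9.48 CPM in the SiO2 day 14 libraries, against 139, 150.1 and 196 CPM in the SiO2 day 7 libraries (-3.12 ± 0.41, adjusted p = 4.15e-05). The proliferation antigen Mki67 had 4.16, 0.799 and 2.43 CPM at day 14 against 16.6, 18.9 and 18.5 CPM at day 7 (-2.88 ± 0.35). Day 14 libraries were low in both genes and did not overlap with day 7, and replicate 3 of day 14 was the lowest for Top2a. Of the proteins that build and steer the spindle, Aspm (-3.52 ± 0.36), Hmmr (-3.41 ± 0.44), the motor Kif11 (-3.41 ± 0.38) and Nusap1 (-2.82 ± 0.21) fell. So did the passenger protein Birc5 (-3.76 ± 0.49), the centromeric histone Cenpa (-3.58 ± 0.47), the condensin subunit Ncapg (-2.88 ± 0.25), cyclin B2 Ccnb2 (-2.32 ± 0.28) and the nuclear lamin Lmnb1 (-2.56 ± 0.27). Of the replication genes, the origin-licensing factor Cdc6 (-2.77 ± 0.30), the primase Prim1 (-1.67 ± 0.16) and the flap endonuclease Fen1 (-1.48 ± 0.17) fell. A replication-dependent histone, Hist1h2ao, fell as well (-3.59 ± 0.33), although its near-identical copies make the assignment of its tags uncertain. The summed level of the mitosis list was 112, 80.7 and 52.97 CPM in the SiO2 day 14 libraries, 446, 521 and 654 CPM in the SiO2 day 7 libraries and 33.4, 55.0 and 57.1 CPM in the untreated libraries. Without SiO2 day 14 replicate 3, 28 mitosis and 16 replication genes were called lower.

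**Figure D2:**
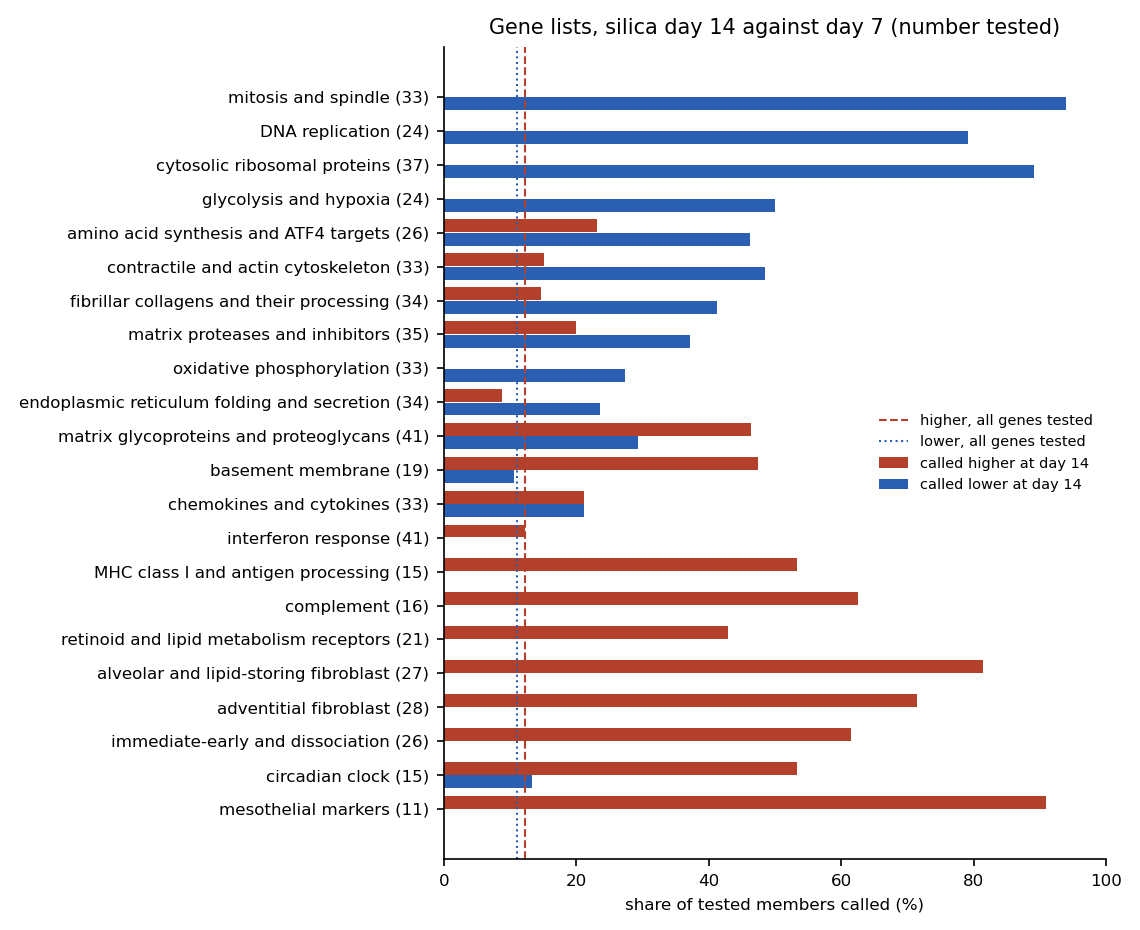
Bars give the share of tested members of each list that was called higher (red) or lower (blue) at silica day 14 than at day 7, with the number tested in parentheses, and the dashed and dotted lines give the shares over all tested genes (12.2% higher, 11.0% lower). The mitosis list stands at 93.9% lower and the alveolar fibroblast list at 81.5% higher, while the interferon list lies on the line for higher genes.

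Promoter sequences of mitosis genes are shown because genes used in G2 and M phase are known to share a short element, the cell cycle genes homology region (CHR), close to the start site together with upstream CCAAT boxes. The sequences are from RefSeq on GRCm38.p6, 300 bases each, 5′ to 3′ on the strand of the gene, running from 250 bases before the start site to 50 after it. Capitals mark TTTGAA (the CHR letters) and CCAAT on either strand, which read TTCAAA and ATTGG on the opposite one.
Top2a (chr11:99024140-99024439, minus strand): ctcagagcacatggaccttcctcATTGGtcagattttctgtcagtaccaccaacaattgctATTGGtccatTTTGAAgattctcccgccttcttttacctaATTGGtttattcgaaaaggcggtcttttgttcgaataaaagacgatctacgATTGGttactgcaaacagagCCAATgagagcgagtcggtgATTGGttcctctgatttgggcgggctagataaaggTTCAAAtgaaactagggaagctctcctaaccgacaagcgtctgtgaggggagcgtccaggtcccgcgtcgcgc
Cenpa (chr5:30666636-30666935, plus strand): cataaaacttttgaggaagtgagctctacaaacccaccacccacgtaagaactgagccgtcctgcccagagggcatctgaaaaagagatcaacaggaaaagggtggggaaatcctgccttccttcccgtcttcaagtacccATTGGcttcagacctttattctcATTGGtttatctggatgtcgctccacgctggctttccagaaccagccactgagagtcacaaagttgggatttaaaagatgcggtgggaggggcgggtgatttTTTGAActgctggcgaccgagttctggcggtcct
Hmmr (chr11:40733388-40733687, minus strand): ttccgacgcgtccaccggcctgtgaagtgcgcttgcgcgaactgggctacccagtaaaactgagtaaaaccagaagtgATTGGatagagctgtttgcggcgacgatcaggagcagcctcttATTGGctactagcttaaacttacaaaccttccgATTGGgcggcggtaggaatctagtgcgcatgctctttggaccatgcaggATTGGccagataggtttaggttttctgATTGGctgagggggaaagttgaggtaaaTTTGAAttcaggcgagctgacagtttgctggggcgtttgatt
Ccnb2 (chr9:70421505-70421804, minus strand): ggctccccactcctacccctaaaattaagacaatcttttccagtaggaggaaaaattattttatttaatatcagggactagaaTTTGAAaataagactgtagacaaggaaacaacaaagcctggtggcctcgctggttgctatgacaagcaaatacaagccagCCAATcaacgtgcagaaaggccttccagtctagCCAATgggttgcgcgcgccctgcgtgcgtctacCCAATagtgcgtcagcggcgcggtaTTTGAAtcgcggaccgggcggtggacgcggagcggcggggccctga
TTTGAA was found in 21 of the 30 promoters of the tested mitosis genes, which belong to 29 of the 33 symbols, and in 17.9% of all 32851 promoters. CCAAT was found in 23 of 30 and in 37.4% of all promoters, and both together in 20 of 30 and in 6.95%. The Top2a promoter held 2 TTTGAA and 6 CCAAT matches, and that of Nusap1 held neither. In the promoters of replication genes TTTGAA occurred in 3 of 25, and the E2F letters TTTCCCGC, TTTGGCGC or TTTCGCGC occurred in 9 of 25, against 1.84% of all promoters. These counts describe letters in a window and not bound factors.

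Of the genes of fibrillar collagens and their processing, more were called lower than higher, and both type I collagen chains fell. Col1a1, a chain of type I collagen, had 2325, 2643 and 1912 CPM in the SiO2 day 14 libraries, against 4012, 4454 and 4669 CPM in the SiO2 day 7 libraries (-0.93 ± 0.14, adjusted p = 2.46e-05). Its partner chain Col1a2 had 4125, 4648 and 3716 CPM in the SiO2 day 14 libraries, against 6669, 5979.8 and 6436 CPM in the SiO2 day 7 libraries (-0.61 ± 0.10). Every day 14 library lay below every day 7 library in both genes, and above the untreated means of 689 and 1576 CPM. Type III collagen Col3a1 was not called (-0.16 ± 0.12, adjusted p = 0.4), with 7862, 8362 and 6014 CPM at day 14 against 8702, 8686 and 7450.1 CPM at day 7 and overlapping libraries. Within this list, 5 of 34 tested members were called higher and 14 lower (median -0.36). Also lower were Col5a1 (-0.98 ± 0.12), the procollagen C-proteinase Bmp1 (-1.38 ± 0.17) and the cross-linking oxidase Lox (-0.83 ± 0.18). The C-proteinase enhancer Pcolce2 went the opposite way, with 192, 183 and 239 CPM in the SiO2 day 14 libraries, against 51.4, 51.8 and 37.97 CPM in the SiO2 day 7 libraries (2.12 ± 0.18, adjusted p = 1e-08), as did the fibril-associated collagen Col14a1 (1.16 ± 0.15). Col11a1, a minor fibrillar chain, had 5.05, 50.1 and 24.1 CPM at day 14 against 40.4, 124 and 47.6 CPM at day 7 and was not called (-1.40 ± 0.59, adjusted p = 0.109). Its day 14 libraries differed widely among themselves. It was called without SiO2 day 14 replicate 2 (adjusted p = 0.0295, edgeR) and with limma-voom (adjusted p = 0.00854).

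Genes of the wider matrix were called in both directions. Among matrix glycoproteins and proteoglycans, 19 higher and 12 lower of 41 tested (median 0.42) were called. Those that fell included fibronectin Fn1 (-0.95 ± 0.19), tenascin Tnc (-1.31 ± 0.22), thrombospondin Thbs2 (-1.52 ± 0.15) and Cthrc1, a secreted glycoprotein of collagen-producing fibroblasts (-1.44 ± 0.32). Tnc had 117, 125 and 74.3 CPM at day 14 against 247, 268 and 269 CPM at day 7, with no overlap. Periostin Postn had 34.5, 43.4 and 16.3 CPM at day 14 against 77.3, 46.5 and 48.1 CPM at day 7 (-0.88 ± 0.29, adjusted p = 0.04), and its call was lost when SiO2 day 7 replicate 1 (adjusted p = 0.17), SiO2 day 14 replicate 1 (0.0682) or SiO2 day 14 replicate 3 (0.0989) was left out of the edgeR fit, and in the fit of the 6 silica libraries alone (0.173). Those that rose included Prelp, a proteoglycan that anchors basement membrane to connective tissue, with 546, 504 and 562 CPM in the SiO2 day 14 libraries, against 177, 181 and 152 CPM in the SiO2 day 7 libraries (1.66 ± 0.10, adjusted p = 5.73e-16). Its 3 day 14 libraries were close together and far above day 7. Fibulin 1, Fbln1, rose too (1.46 ± 0.12). The elastic fibre list held 5 higher and 3 lower of 15 tested (median 0.23). Its latent TGF-beta binding protein Ltbp4 (1.81 ± 0.25) and fibulin 3, Efemp1 (1.36 ± 0.18), rose, and elastin itself, Eln, had 1156, 1442 and 1180.1 CPM at day 14 against 987, 746 and 1016 CPM at day 7 without being called (0.46 ± 0.20, adjusted p = 0.113). Eln was called in the fit of the 6 silica libraries alone (adjusted p = 0.0108), with limma-voom (0.0276) and with DESeq2 (0.0410). Basement membrane genes held 9 higher and 2 lower of 19 tested (median 0.36): Col4a5 (1.51 ± 0.25) and the laminin chain Lama2 (1.00 ± 0.11) rose, and nidogen 2, Nid2, fell (-2.51 ± 0.26), with 17.5, 16.8 and 12.1 CPM at day 14 against 56.9, 78.1 and 128 CPM at day 7.

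Proteases and contractile genes were more often called lower than higher. Of the matrix proteases and inhibitors, 7 higher and 13 lower of 35 tested (median -0.15) were called. Adam12, a membrane metalloprotease of activated mesenchyme, had 7.43, 8.26 and 5.59 CPM in the SiO2 day 14 libraries, against 49.9, 50.5 and 58.7 CPM in the SiO2 day 7 libraries (-2.91 ± 0.34, adjusted p = 3.15e-06). Adam19 (-1.76 ± 0.20), the collagenase Mmp14 (-0.61 ± 0.09) and the inhibitor Timp1 (-0.93 ± 0.13) were lower with smaller changes. The contractile and actin cytoskeleton list held 5 higher and 16 lower of 33 tested (median -0.45), and 3 were called higher without SiO2 day 14 replicate 3 or without SiO2 day 7 replicate 3. Lrrc15 was counted among the 16 lower. The 5 higher were Ctgf (1.18 ± 0.16), Cyr61 (0.67 ± 0.11), Myh10 (0.57 ± 0.09), Mylk (0.26 ± 0.09) and Csrp1 (0.24 ± 0.09). Ctgf had 1083, 1220 and 1159 CPM at day 14 against 548, 478 and 502 CPM at day 7. Acta2, the smooth muscle actin that defines myofibroblasts, had 42.2, 30.9 and 20.2 CPM in the SiO2 day 14 libraries, against 99.6, 93.8 and 79.0 CPM in the SiO2 day 7 libraries (-1.56 ± 0.22, adjusted p = 1.78e-05). The enteric smooth muscle actin Actg2 averaged 42.1 ± 9.55 CPM at day 14 and 279 ± 78.4 CPM at day 7 (-2.74 ± 0.33). The tropomyosin Tpm2 (-1.50 ± 0.17), the actin cross-linker Actn4 (-0.96 ± 0.12) and desmin, Des (-1.31 ± 0.32), fell, and Tagln overlapped between the days at 35.7, 24.8 and 33.0 CPM at day 14 against 72.2, 28.7 and 35.9 CPM at day 7 (-0.56 ± 0.31, adjusted p = 0.231). Markers of pericytes and smooth muscle, cells many of which carry CD146, moved the same way: 1 higher and 7 lower of 12 tested (median -0.80) were called, and they summed to 466, 481 and 387 CPM at day 14 and 803, 681 and 631 CPM at day 7. Without SiO2 day 14 replicate 3, 3 of these 12 markers were called lower, and without SiO2 day 7 replicate 1, 4 were. Of the 19 markers in the files, 15 had a count in a day 14 library and 18 in a day 7 library. Cspg4 (log2 fold change -2.09) and Notch3 (-1.03) were among the 7 lower, and Abcc9 (0.97) was the 1 higher. The 7 also included Actg2, Des and Postn, which are given above, so the list is not independent of those falls. Within the sums, Actg2, Des and Postn averaged 42.1, 28.4 and 31.4 CPM at day 14 and 279, 70.7 and 57.3 CPM at day 7. Higd1b, a defining pericyte gene, had 0 counts in all 6 libraries. The part of such cells in the contractile changes was not tested.

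**Figure D3:**
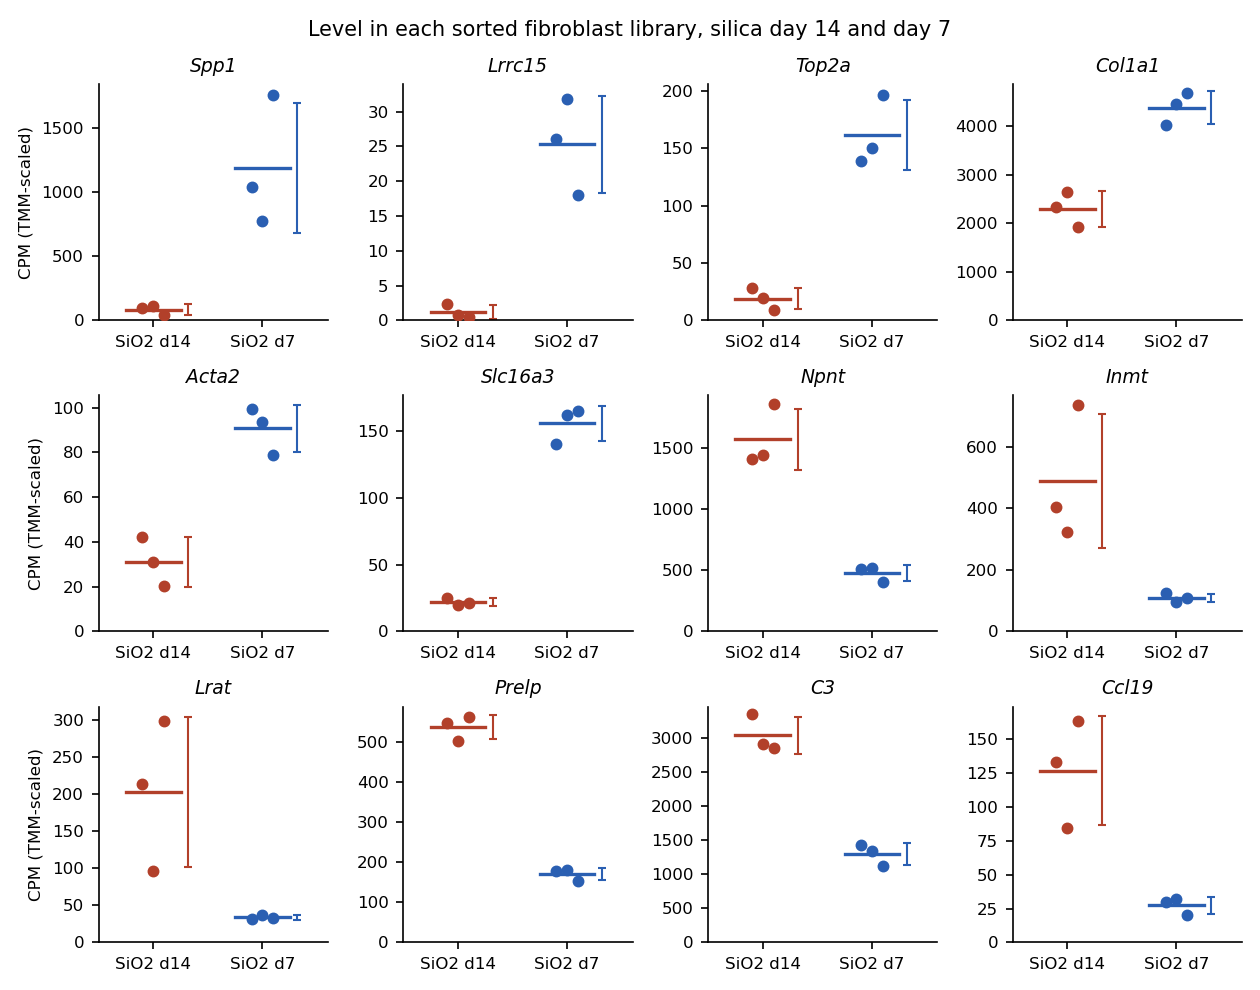
Each dot is the TMM-scaled CPM of 1 library, with silica day 14 (red) left of silica day 7 (blue), horizontal lines at the mean and bars of 1 SD beside it (n = 3 libraries per day). Spp1, Lrrc15, Top2a, Col1a1, Acta2 and Slc16a3 lie lower and Npnt, Inmt, Lrat, Prelp, C3 and Ccl19 higher at day 14, with no overlap between days in any of the 12 genes.

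Secreted signals and their antagonists changed in both directions. Inhba, the activin A subunit, fell together with its antagonist follistatin, Fst. Inhba had 2.08, 1.87 and 0.972 CPM in the SiO2 day 14 libraries, against 13.3, 13.0 and 15.4 CPM in the SiO2 day 7 libraries (-3.09 ± 0.35), and Fst had 16.0, 12.5 and 10.4 CPM at day 14 against 58.9, 56.9 and 72.1 CPM at day 7 (-2.28 ± 0.22). Gremlin, Grem1, an antagonist of bone morphogenetic proteins (BMPs), had 18.1, 17.3 and 8.26 CPM at day 14 against 74.7, 61.4 and 51.6 CPM at day 7 (-2.12 ± 0.28). The groups were apart for all 3 genes. Another BMP antagonist, Chrdl1 (1.93 ± 0.25), and the intracellular inhibitor Smad6 (0.93 ± 0.14) rose. In all, the list of TGF-beta, activin and BMP signalling held 14 higher and 6 lower of 40 tested (median 0.23). Wnt signalling held 12 higher and 5 lower of 33 tested (median 0.55), with 3 lower without SiO2 day 14 replicate 3 or SiO2 day 7 replicate 3. There the Wnt amplifier Rspo3 had 34.5, 28.0 and 15.6 CPM at day 14 against 85.0, 128 and 161 CPM at day 7 (-2.28 ± 0.25), while the ligand Wnt2 (1.72 ± 0.28) and the secreted modulator Dkk3 (1.07 ± 0.12) rose. Among paracrine growth factors, with 14 higher and 8 lower of 35 tested (median 0.23), the EGF-family ligands Ereg (-2.44 ± 0.25) and Nrg1 (-1.90 ± 0.24) fell and the macrophage growth factor Csf1 rose (0.91 ± 0.12). Without SiO2 day 7 replicate 3, 9 of these 35 were called higher. The list also holds the non-coding RNA H19, which is counted among the 8 lower. Transcription factors of mesenchyme and skeleton gave 5 higher and 6 lower of 27 tested (median -0.13), with 3 higher without SiO2 day 14 replicate 1, SiO2 day 14 replicate 3 or SiO2 day 7 replicate 2. Runx2, the master regulator of bone formation, fell (-1.52 ± 0.17), as did Prrx1 (-0.71 ± 0.12), and Osr1 rose (0.86 ± 0.11).

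Most ribosomal protein genes fell, as did 12 of 24 genes of glycolysis and hypoxia. Of the cytosolic ribosomal proteins, 0 higher and 33 lower of 37 tested (median -0.58) were called, with changes such as those of Rps12 (-0.73 ± 0.09) and Rpl5 (-0.59 ± 0.09). They summed to 47619, 43849 and 50698 CPM at day 14 and 67823, 66292 and 71760.3 CPM at day 7, beside 47185, 48335 and 48688 CPM in untreated libraries. Ribosomal protein genes have many processed pseudogenes, and tags of such copies could not be separated. Ribosome biogenesis held 0 higher and 6 lower of 30 tested (median -0.26), but 1 was called lower without SiO2 day 7 replicate 3, 2 without SiO2 day 14 replicate 2 or 3, and 3 without SiO2 day 14 replicate 1. Oxidative phosphorylation held 0 higher and 9 lower of 33 tested (median -0.30), and 5 were called lower without SiO2 day 14 replicate 2. The glycolysis and hypoxia list held 0 higher and 12 lower of 24 tested (median -0.83). Slc16a3, the lactate exporter, had 25.3, 19.7 and 21.1 CPM in the SiO2 day 14 libraries, against 140.5, 162 and 165 CPM in the SiO2 day 7 libraries (-2.82 ± 0.16, adjusted p = 1.3e-16). Its levels were close together within each day. Glycolytic Pgam1 (-0.84 ± 0.12), pyruvate kinase Pkm (-0.94 ± 0.13) and the glucose transporter Slc2a1 (-0.93 ± 0.10) fell less. Of the genes of the endoplasmic reticulum, 3 higher and 8 lower of 34 tested (median -0.15) were called, among them the collagen chaperone Fkbp10 (-0.74 ± 0.13), the disulfide isomerase P4hb (-0.61 ± 0.10) and the translocon subunit Sec61b (-0.73 ± 0.10), which fell.

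Amino acid synthesis and other targets of the stress factor ATF4 gave 6 higher and 12 lower of 26 tested (median -0.79). The summed level of this list overlapped, at 1414 to 1773 CPM at day 14 and 1455 to 1923 CPM at day 7. Asns, asparagine synthetase, had 12.5, 13.3 and 11.9 CPM in the SiO2 day 14 libraries, against 61.2, 75.2 and 166 CPM in the SiO2 day 7 libraries (-3.00 ± 0.47, adjusted p = 0.000225). SiO2 day 7 replicate 3 was more than 2-fold above the other day 7 libraries, and the day 14 libraries were nearly alike. Ddit4, an inhibitor of the growth kinase mTORC1, fell (-2.71 ± 0.26). Leaving out SiO2 day 7 replicate 3 or SiO2 day 14 replicate 3 left 7 of the 26 called lower, and without SiO2 day 14 replicate 3 the number called higher was 3. The promoter of Asns is shown because it carries a known C/EBP-ATF response element, whose letters TGATGAAA are in capitals (RefSeq, GRCm38.p6).
Asns (chr6:7693160-7693459, minus strand): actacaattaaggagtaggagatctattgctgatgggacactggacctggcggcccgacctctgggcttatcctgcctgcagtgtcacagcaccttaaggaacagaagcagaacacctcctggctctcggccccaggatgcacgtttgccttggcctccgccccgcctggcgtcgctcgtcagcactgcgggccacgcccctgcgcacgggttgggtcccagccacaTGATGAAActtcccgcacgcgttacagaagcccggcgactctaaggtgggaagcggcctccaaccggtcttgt
TGATGCAA or TGATGAAA on either strand occurred in 6 of 27 promoters of this list and in 1.90% of all promoters.

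Most genes of the resting fibroblast lists rose. In the list of alveolar and lipid-storing fibroblast genes, 22 of 27 tested members were called higher and 0 lower (median 1.09). Npnt, the integrin ligand nephronectin of the alveolar basement membrane, had 1415, 1449 and 1861 CPM in the SiO2 day 14 libraries, against 511, 517 and 406 CPM in the SiO2 day 7 libraries (1.72 ± 0.15, adjusted p = 8.68e-09). Its receptor chain Itga8 had 420.5, 468 and 517 CPM at day 14 against 197, 205 and 158 CPM at day 7 (1.33 ± 0.10), and the methyltransferase Inmt had 404, 325 and 735 CPM at day 14 against 123, 96.7 and 108 CPM at day 7 (2.16 ± 0.33). The days were apart in all 3 genes, day 14 replicate 3 was the highest library of each, and the untreated means of 2829, 648 and 1285 CPM stood above every day 14 library. Tcf21, a transcription factor of the lipofibroblast lineage (0.92 ± 0.14), the actin-binding Limch1 (1.20 ± 0.09), the cytoskeletal linker Macf1 (1.09 ± 0.10) and the matrix protein Mamdc2 (1.86 ± 0.11) rose as well. Mamdc2 averaged 1189 ± 70.2 CPM at day 14 and 327 ± 35.4 CPM at day 7, and 1066 CPM untreated. Adventitial fibroblast genes, a list that shares no member with the alveolar one, held 20 higher and 0 lower of 28 tested (median 1.40). Cd34, a surface marker of adventitial progenitors, had 201, 197 and 236 CPM at day 14 against 77.3, 97.5 and 71.9 CPM at day 7 (1.36 ± 0.13). The plasminogen-binding Clec3b (1.85 ± 0.21) and dermatopontin, Dpt (1.23 ± 0.12), rose as well. The list summed to 27161, 24839 and 31447 CPM at day 14, 16075, 14459 and 11268 CPM at day 7 and 28337, 30271 and 29848 CPM in untreated libraries. Without SiO2 day 14 replicate 3, the higher calls were 21 of 27 alveolar and 19 of 28 adventitial genes. Retinoid and lipid metabolism genes held 9 higher and 0 lower of 21 tested (median 0.11), among which Aldh1a1, a retinoic acid synthesising enzyme, had 55.9, 57.8 and 58.3 CPM at day 14 against 12.8, 18.6 and 21.3 CPM at day 7 (1.71 ± 0.16) and Apoe rose by 1.04 ± 0.18. Cholesterol and fatty acid synthesis gave 4 higher and 1 lower of 32 tested (median 0.08), a share of higher members near that of all genes.

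Most of the tested complement genes and several immune ligands rose, and some also stood above the untreated level. The complement list held 10 higher and 0 lower of 16 tested (median 0.73). C3, the central complement component, at chr17:57203970-57228136, had 3348, 2907 and 2849.7 CPM in the SiO2 day 14 libraries, against 1436, 1344 and 1115 CPM in the SiO2 day 7 libraries (1.22 ± 0.13, adjusted p = 2.73e-08). C4b (1.39 ± 0.12) and the C1 inhibitor Serping1 (0.64 ± 0.09) rose too. For C3, C4b and Serping1 all day 14 libraries exceeded all day 7 libraries and the untreated means of 956, 138 and 5620.2 CPM. Chemokines and cytokines held 7 higher and 7 lower of 33 tested (median -0.11), with 4 lower without SiO2 day 14 replicate 3. Of these, the lymphocyte attractant Ccl19 had 133, 84.2 and 164 CPM in the SiO2 day 14 libraries, against 30.1, 31.9 and 20.0 CPM in the SiO2 day 7 libraries (2.22 ± 0.24, adjusted p = 1.34e-06) and averaged 50.7 CPM untreated. Ccl19 has near-identical gene copies in the mouse, so its tags may be divided. The alarmin Il33 had 41.0, 40.8 and 22.6 CPM at day 14 against 13.3, 18.9 and 13.2 CPM at day 7 (1.20 ± 0.20), and the B cell survival factor Tnfsf13b had 124, 107 and 101 CPM at day 14 against 38.9, 48.6 and 40.0 CPM at day 7 (1.38 ± 0.12). The neutrophil attractant Cxcl5 fell (-1.06 ± 0.17), and Cxcl12 was not called (-0.28 ± 0.13, adjusted p = 0.136). The acute-phase and NF-kappaB list held 10 higher and 4 lower of 28 tested (median -0.09): the adhesion molecules Icam1 (0.90 ± 0.17) and Vcam1 (1.02 ± 0.12) rose. Serum amyloid Saa3 had 1139, 939 and 499.5 CPM at day 14 against 1313, 1711 and 1286 CPM at day 7, did not overlap between days and was not called (-0.74 ± 0.45, adjusted p = 0.279), although limma-voom called it (adjusted p = 0.0211).

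MHC class I and antigen processing held 8 higher and 0 lower of 15 tested (median 0.47), with H2-K1 (0.99 ± 0.16) and the light chain B2m (0.52 ± 0.11) higher. The class II chain H2-Eb1 had 113, 78.6 and 101 CPM at day 14 against 24.3, 22.3 and 14.4 CPM at day 7 (2.26 ± 0.36). Other class II chains were at far lower levels. H2-Aa had 2.97, 3.20 and 2.19 CPM at day 14 against 0.502, 0.266 and 0.506 CPM at day 7, without overlap. H2-Ab1 had 4.16, 1.07 and 1.70 CPM at day 14 against 1.25, 0.531 and 0 CPM at day 7, which overlapped. Genes of the H2 cluster resemble each other, and their tags may be divided. Of the interferon-response genes, 5 higher and 0 lower of 41 tested (median 0.37) were called, a share equal to that of all genes, and this count depended on the fit. It was 11 of 41 in the fit of the 6 silica libraries alone, 9 with limma-voom and 8 with no filter on low counts. Without SiO2 day 14 replicate 1, 1 was called, without SiO2 day 7 replicate 1 or 3, 2 were, and without SiO2 day 14 replicate 2, 3 were. The list summed to 17102, 14006 and 11784 CPM at day 14 and 6953, 10071 and 8656 CPM at day 7, without overlap. A large part of that sum was Ifi27l2a, an interferon-inducible membrane protein at chr12:103442167-103443680. The summed level of the list without Ifi27l2a overlapped between the days. Ifi27l2a had 11719, 9249 and 7900.5 CPM in the SiO2 day 14 libraries, against 3553, 5594 and 4322 CPM in the SiO2 day 7 libraries (1.10 ± 0.31, adjusted p = 0.0175). Its call was lost without SiO2 day 7 replicate 1 (adjusted p = 0.0688), SiO2 day 7 replicate 3 (0.0602) or SiO2 day 14 replicate 1 (0.0693), each in edgeR. Mx2, of the antiviral GTPase family but annotated as a polymorphic pseudogene in GENCODE vM21, rose (1.12 ± 0.28). Isg15, a ubiquitin-like modifier, overlapped at 328, 254 and 259.7 CPM at day 14 against 175, 277 and 295 CPM at day 7 (0.17 ± 0.33, adjusted p = 0.779), and without SiO2 day 7 replicate 1 its estimate was -0.03. Its promoter is shown for the interferon-stimulated response element, searched as GAAA, any 2 bases and GAAA again on either strand, whose 3 overlapping matches are in capitals (RefSeq, GRCm38.p6).
Isg15 (chr4:156200769-156201068, minus strand): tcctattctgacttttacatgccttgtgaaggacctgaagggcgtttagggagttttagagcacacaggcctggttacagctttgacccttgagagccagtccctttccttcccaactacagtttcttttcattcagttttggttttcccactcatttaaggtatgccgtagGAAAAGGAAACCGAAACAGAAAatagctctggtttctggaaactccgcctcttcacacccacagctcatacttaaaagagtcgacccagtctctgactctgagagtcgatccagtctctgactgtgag
The element occurred in 16 of 31 promoters of the list and in 3.44% of all promoters. Of the myeloid markers, 20 of 23 had a count in a day 14 library and 19 in a day 7 library. They summed to 69.2, 60.0 and 47.1 CPM at day 14 and 36.6, 32.9 and 34.9 CPM at day 7, and Tyrobp had 27.0, 23.2 and 15.3 CPM at day 14 against 9.28, 12.0 and 7.85 CPM at day 7 (1.16 ± 0.25). Of the 15 lymphocyte markers, 9 had a count in a day 14 library and 8 in a day 7 library. Of the 3 tested, Igj was called higher (log2 fold change 2.82) and Ccl5 lower (-0.96). Lymphocyte markers summed to 35.7, 38.4 and 30.4 CPM at day 14 and 31.1, 66.2 and 73.9 CPM at day 7, with Cd3e, Cd79a, Cd79b and Cd8a at 0. Their part in the immune changes was not tested.

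Early-response and clock genes were more often called higher than lower. The immediate-early and dissociation list held 16 higher and 0 lower of 26 tested (median 0.44). Fos had 8092, 8956 and 10744 CPM at day 14 against 4802, 6345 and 6086 CPM at day 7 (0.69 ± 0.11), and Klf4 (1.37 ± 0.16) and Atf3 (1.72 ± 0.22) rose. The list summed to 33281, 30622 and 42466 CPM at day 14 and 26226, 24738 and 23667 CPM at day 7, with day 14 replicate 3 highest, and 10 of 26 were called without that library. These genes respond to tissue digestion, and its part was not tested. Circadian clock genes held 8 higher and 2 lower of 15 tested (median 0.64), or 5 higher without SiO2 day 7 replicate 2, with Rora (0.72 ± 0.10), Hlf (1.598 ± 0.20) and Clock (0.64 ± 0.14) higher. No label gave the hour of collection. NRF2 and glutathione genes held 6 higher and 2 lower of 30 tested (median 0.09), and the glutathione transferases Gsta4 (1.71 ± 0.26) and Gstm1 (1.89 ± 0.37) and extracellular superoxide dismutase Sod3 (0.96 ± 0.13) rose. Of the p53 and senescence genes, 5 higher and 3 lower of 28 tested (median 0.06) were called, with the growth-arrest gene Gadd45b higher (1.29 ± 0.16), and 2 were called higher without SiO2 day 14 replicate 3 and 3 without SiO2 day 7 replicate 3. Among all tested genes, 12.2% were called higher and 11.0% lower. Lysosome genes lay below both shares, with 3 higher (10%) and 1 lower (3.33%) of 30 tested (median 0.05), and 5 were higher without SiO2 day 14 replicate 3. Notch signalling gave 2 higher (20%) and 1 lower (10%) of only 10 tested (median 0.18). Heat shock chaperones gave 5 higher (25%) and 2 lower (10%) of 20 tested (median 0.16) and 8 higher with limma-voom. Glucocorticoid-induced genes and metallothioneins gave 6 higher (37.5%) and 3 lower (18.75%) of 16 tested (median 0.37).

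Markers of other cell types also moved. Mesothelial markers held 10 higher and 0 lower of 11 tested (median 1.73). Mesothelin, Msln, had 38.04, 28.8 and 50.1 CPM in the SiO2 day 14 libraries, against 14.0, 10.1 and 11.1 CPM in the SiO2 day 7 libraries (1.73 ± 0.26, adjusted p = 1.18e-05), and the uroplakin Upk1b had 272, 313 and 321 CPM at day 14 against 123, 104 and 88.3 CPM at day 7 (1.52 ± 0.11). Gpm6a (2.06 ± 0.31) and Lrrn4 (2.29 ± 0.42) rose as well. The mesothelial markers summed to 646, 641 and 779 CPM at day 14, 320.0, 258 and 227 CPM at day 7 and 669.6, 781 and 783 CPM in untreated libraries, so the silica day 14 libraries lay near the untreated ones. Wt1, a defining mesothelial transcription factor, was at 0.594, 1.87 and 1.21 CPM at day 14 and 0.502, 0 and 0.759 CPM at day 7. Epithelial markers held 0 higher and 3 lower of 6 tested (median -0.96), with the surfactant genes Sftpb (2.08, 1.87 and 2.19 CPM at day 14 against 10.0, 6.38 and 9.87 CPM at day 7) and Sftpc (4.16, 2.13 and 2.67 CPM at day 14 against 12.8, 13.5 and 8.35 CPM at day 7) lower. Endothelial markers held 5 higher and 1 lower of 8 tested (median 0.90), summed to 124, 114 and 125 CPM at day 14 and 83.5, 77.3 and 65.1 CPM at day 7, and 1 of 8 was called higher without SiO2 day 14 replicate 3 or SiO2 day 7 replicate 3 and 2 without SiO2 day 7 replicate 2. Schwann cell markers held 3 higher and 0 lower of 4 tested (median 1.44), and no erythroid marker passed the filter on low counts. General fibroblast identity genes gave 3 higher and 5 lower of 13 tested (median -0.16) and summed to 40836, 40796 and 40569.8 CPM at day 14 and 42124, 40694 and 38989 CPM at day 7, which overlap. The part of other cell types in the changes was not tested.

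The change from day 7 to day 14 was then compared with that in the bleomycin model through an interaction term in the same edgeR model. The term is the log2 change between the days in silica minus that in bleomycin, and no library is shared between the models. Of 11669 genes, 2256 (19.3%) passed at an adjusted p under 0.05, 1144 (9.80%) with a positive and 1112 (9.53%) with a negative term. BLM day 14 against BLM day 7 alone gave 1143 called genes (9.80%), 602 higher (5.16%) and 541 lower (4.64%). Of these, 477 were also called in silica, which is 17.6% of the silica list and 41.7% of the bleomycin list. In 183 the direction was the same and in 294 (61.6%) it was opposite.

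Fibrillar collagen genes parted between the models: 19 of 34 had a negative term, and 4 a positive one. Col1a1 had a term of -1.83 ± 0.20, with a log2 change of 0.89 in bleomycin (adjusted p = 0.000169), and averaged 3562 ± 345 CPM at BLM day 14 and 1917 ± 495 CPM at BLM day 7 (SD, n = 3 each). Fibrillin Fbn2 was lower at day 14 in silica and higher in bleomycin, with 20.5 ± 1.605 CPM at BLM day 14 and 1.81 ± 1.09 CPM at BLM day 7, and had a term of -8.53 ± 0.59. Lrrc15 (-6.24 ± 0.45), Thbs2 (-3.81 ± 0.23), Cthrc1 (-3.90 ± 0.40) and Fn1 (-2.22 ± 0.26) parted in the same way, and each also rose between the days in bleomycin by the same test. Of the mitosis genes, 22 of 33 had a negative term, as for Mki67 (-2.47 ± 0.47) and Nusap1 (-1.66 ± 0.29), and the list summed to 378, 205 and 198 CPM at BLM day 14 and 413, 509.7 and 473 CPM at BLM day 7. Ribosomal protein genes had a negative term in 31 of 37. Positive terms were found in 21 of 27 alveolar and 21 of 28 adventitial genes and in 34 of 41 interferon-response genes, of which none had a negative term. Interferon-response genes summed to 2152, 2940.0 and 2637 CPM at BLM day 14 and 15069, 7454 and 7422 CPM at BLM day 7. BLM day 7 replicate 1 stood highest, and without it 28 of the 41 had a positive term.

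**Figure D4:**
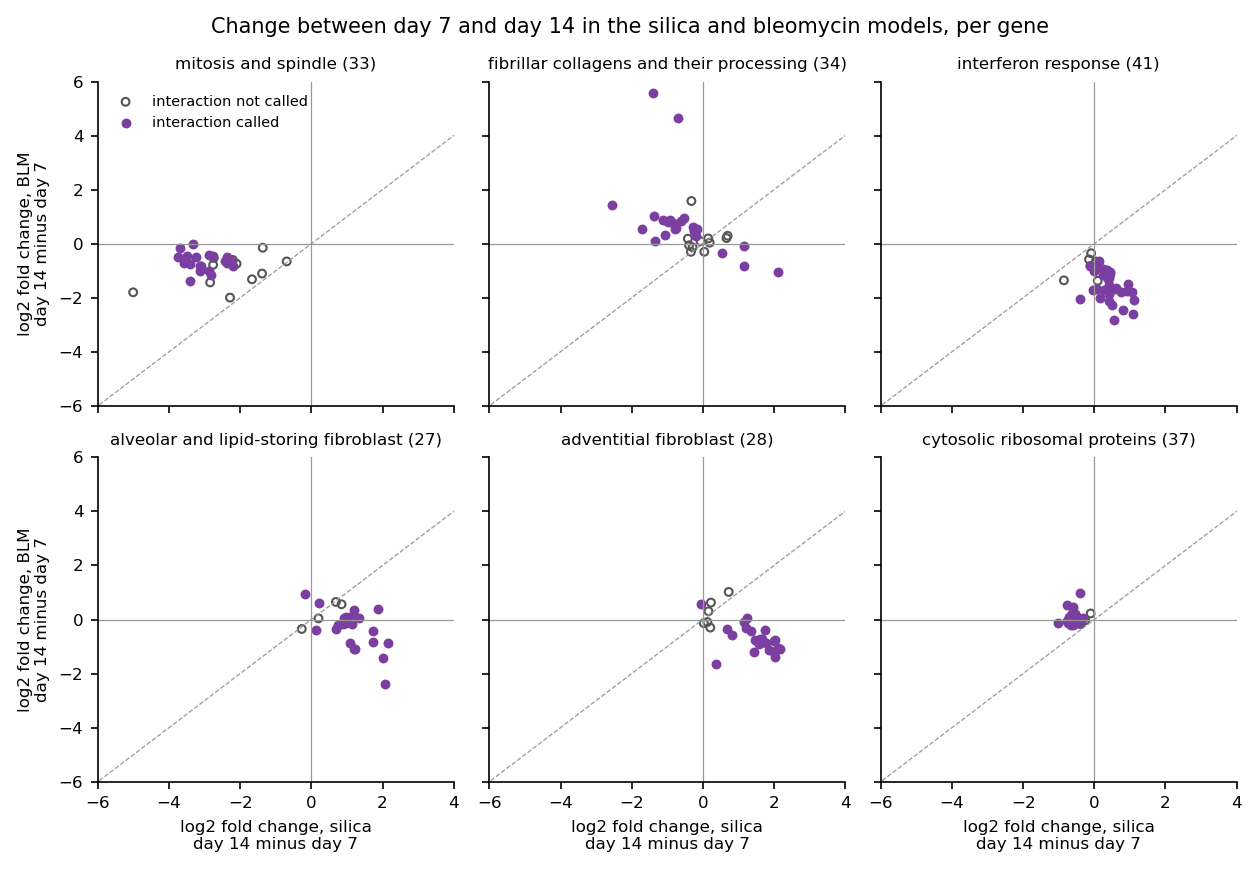
Each point is 1 tested gene of the named list, with its log2 change between day 14 and day 7 in silica on the x axis and in bleomycin on the y axis, filled where the interaction passed, and the dashed line marks equal change. Most interferon, alveolar and adventitial points lie on the side of a more positive change in silica, and most collagen points on the other side.

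Levels over the whole course place the day 14 values. In silica, Spp1 averaged 0.909 CPM untreated, 1191 CPM at day 7, 84.4 CPM at day 14 and 165 CPM at day 63. Thbs2 averaged 5.94, 217, 75.6 and 107 CPM in the same order. Both stood highest at day 7 and remained above the untreated mean at day 14 and day 63. C3 averaged 956 CPM untreated, 1298 CPM at day 7, 3035 CPM at day 14 and 2744 CPM at day 63, and Ccl19 averaged 50.7, 27.3, 127 and 234 CPM. Inmt averaged 1285 CPM untreated, 109 CPM at day 7, 488 CPM at day 14 and 385 CPM at day 63. These levels are given as a description, since the differences from untreated libraries share the day 7 and day 14 values used above.

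**Figure D5:**
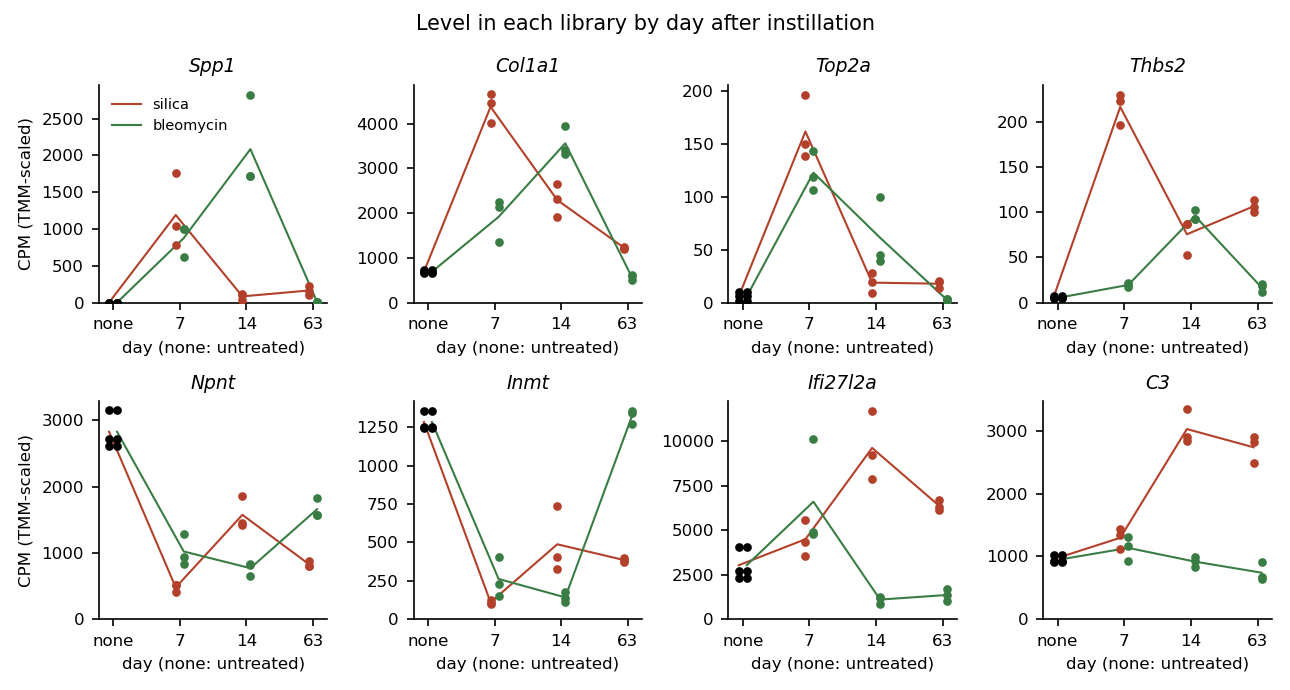
Each dot is the TMM-scaled CPM of 1 library by day after instillation, with lines through the group means for silica (red) and bleomycin (green), and the untreated libraries in black are the same for both lines. At day 14 Spp1, Col1a1 and Top2a lie below day 7 in silica, and C3 and Ifi27l2a lie above it.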

How the data were processed

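Each library was made from 10000 sorted fibroblasts by 3′SAGE-seq, which reads tags from the 3′ ends of amplified polyadenylated RNA, on an Ion Proton sequencer, per the labels' protocols. The deposited files hold raw read counts per gene symbol, 1 per library, not normalized by the authors. Bowtie2 2.2.5 and mm10 are named in the submitters' processing notes. The annotation, counting program and strand setting are not given in the sources used here, so tags of overlapping antisense genes could not be told apart. Of the 23204 symbols, 11669 passed filterByExpr, and 17830 (76.8%) matched GENCODE vM21 names.

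All 21 libraries (7 groups of 3) entered 1 quasi-likelihood fit in edgeR 4.0.16 (R 4.3.3) with TMM scaling and 14 residual degrees of freedom (biological coefficient of variation 12.0%), and p-values were adjusted by Benjamini-Hochberg over all tested genes. Each SE was derived as the absolute log2 change divided by the square root of the quasi-likelihood F statistic. It therefore draws on the spread in all 21 libraries. The labels name no molecular identifiers. No batch or run date is in the labels. In all 7 groups, replicate pairs differed beyond counting noise (chi-square per degree of freedom at least 2.79), so none was treated as a duplicate.

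Alternatives were upper quartile and DESeq2 scaling, no filter, limma-voom (limma 3.58.1), DESeq2 1.42.0, a replicate block, fits of the compared groups alone, and leaving out each library. The comparison and the 44 gene lists, 965 tested symbols in all, were chosen with earlier results of these data known, and the BLM day 14 against BLM day 7 contrast was not among the planned tests. Genes named are the 12 largest rises and the 12 largest falls among called genes at 10 CPM or more without overlap. Added to these are up to 4 members per list with the smallest p, the 6 most positive and 6 most negative interactions, and a set of well-known fibrosis genes. That rule gave 210 genes, and the 135 described were chosen from them with their values known, as were H2-Aa and H2-Ab1, which are outside it. Ptprc, Pecam1, Cdh5, Cd3e, Epcam, Mcam, Hbb-bs, Wt1, Higd1b, Cspg4, Notch3, Abcc9, Igj and Ccl5 are from the marker lists. Ctgf, Cyr61, Myh10, Mylk and Csrp1 are from the contractile list. Where tags could come from near-identical copies, genes are called uncertain. The 39 genes followed in the interaction were chosen in the same way.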

Additional observations from a re-analysis of the deposited data

Results flagged for a closer look

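The change between day 7 and day 14 differed between the silica and the bleomycin model, by the interaction test, for 1144 genes with a more positive change in silica and 1112 with a more negative one. The values below are interaction terms, the log2 change of day 14 minus day 7 in silica minus that in bleomycin. They are given ± SE from the fit of all 21 libraries, with n = 3 per group. All passed edgeR's quasi-likelihood test at an adjusted p under 0.05.

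Among matrix genes the terms were -8.53 ± 0.59 for Fbn2, -6.98 ± 1.08 for Col11a1, -5.07 ± 0.61 for Spp1, -3.90 ± 0.40 for Cthrc1, -3.81 ± 0.23 for Thbs2, -3.17 ± 0.43 for Postn, -2.22 ± 0.26 for Fn1 and -1.83 ± 0.20 for Col1a1, while Npnt (2.13 ± 0.20) and Pcolce2 (3.17 ± 0.25) had positive terms. In the contractile and actin cytoskeleton list, 16 of 33 tested members had a negative term and 4 a positive one, the latter including Cyr61, Myh10 and Csrp1. The terms of Tagln and Ctgf did not pass. These described genes of activated and contractile fibroblasts had negative terms: Lrrc15 -6.24 ± 0.45, Adam12 -3.76 ± 0.44, Actg2 -3.50 ± 0.45, Acta2 -1.96 ± 0.31, Inhba -4.02 ± 0.47, Grem1 -3.71 ± 0.53 and Runx2 -1.91 ± 0.24. So did the division genes Mki67 (-2.47 ± 0.47), Hmmr (-2.67 ± 0.58), Top2a (-2.10 ± 0.55) and Nusap1 (-1.66 ± 0.29), the lactate exporter Slc16a3 (-3.04 ± 0.26), the ribosomal protein Rps12 (-0.73 ± 0.12) and the chemokine Cxcl12 (-1.33 ± 0.19). Cxcl12 was called higher between the days in bleomycin (log2 change 1.05, adjusted p = 2.94e-06 in edgeR) and was not called in silica.

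Positive terms were found for the resting fibroblast genes Inmt (3.04 ± 0.47), Itga8 (1.28 ± 0.14), Clec3b (2.98 ± 0.30) and Lrat (3.43 ± 0.61), and for the mesothelial gene Msln (2.26 ± 0.35). The interferon and immune genes Ifi27l2a (3.69 ± 0.45), Mx2 (3.22 ± 0.50), Isg15 (2.19 ± 0.50), H2-K1 (1.84 ± 0.24), C3 (1.53 ± 0.18) and Ccl19 (1.57 ± 0.38) also had positive terms. Fxyd3 (5.12 ± 0.78), Ly6c2 (4.36 ± 0.95), Ppl (4.28 ± 0.81) and Tppp, a tubulin-binding protein (4.22 ± 0.25), had the most positive terms of the genes described. Tppp averaged 58.4 ± 10.8 CPM at SiO2 day 14 and 12.5 ± 2.77 CPM at SiO2 day 7, and 9.17 ± 1.53 CPM at BLM day 14 and 37.0 ± 6.91 CPM at BLM day 7 (SD, n = 3 each).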

How the results depend on the processing

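Counts of called genes over all genes tested stayed within 1.5 times the reported ones under every alternative run. For SiO2 day 14 against SiO2 day 7 they ran from 1046 to 1340 higher and from 981 to 1210 lower when 1 library was left out, and were 1220 higher and 1097 lower in the fit of the 6 silica libraries alone. For the interaction they ran from 886 to 1168 positive and from 852 to 1059 negative when 1 library was left out, the fewest positive ones without BLM day 7 replicate 1. The replicate numbers were not taken as pairs: deviations of same-numbered libraries correlated at -0.0110, 0.0283 and -0.0471, and no label says that a number marks a shared batch. With the replicate block, 1391 genes were higher and 1274 lower, and the interaction had 1116 positive and 1084 negative terms. Of the 135 genes followed, the estimate of Isg15 alone changed sign, with -0.0311 to 0.314 over the fits that left out 1 library, the lowest without SiO2 day 7 replicate 1, and it was called in none. Postn and Ifi27l2a lost their calls as given above, and the cause was not tested. The 39 interaction terms followed kept their sign and call under all settings run. Some list counts moved by more than 1.5 times when 1 library was left out, as given beside them. In the fit of the 6 libraries, where fewer genes were tested, the counts were 7 lower for ATF4 targets, 3 lower for ribosome biogenesis, and 3 higher for p53, 3 for contractile and 2 for endothelial genes. Contractile genes numbered 3 higher with no filter and endothelial markers 3 with DESeq2. With 3 libraries per day, an exact permutation test of a single summed level cannot give a p below 0.1, so list sums are given as values.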
